A study of Homo sapiens with 20 samples.

Results

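TERT, the gene of the telomerase reverse transcriptase, was followed in hTCEpi cells, which are human corneal epithelial cells that an introduced telomerase keeps dividing. It was picked by its gene symbol, as 1 of 60671 gene identifiers in the deposited counts, with its level and its response known from earlier results of the same data. The line was grown in keratinocyte medium with 0.15 mM calcium and given recombinant human SPARC, a secreted collagen-binding glycoprotein, for 24 h. The groups were control (0 µg/ml), SPARC 0.05, SPARC 0.5 and SPARC 5, each named for its dose in µg/ml, with 5 samples in each of the 4 groups and 20 in all. RNA was depleted of ribosomal RNA and copied from random hexamers, and the samples gave between 31955358 and 50112286 counts. All groups share the immortalized line and the medium. The construct that immortalized the line and its promoter were not given in the sources used here. Counts per gene do not separate transcripts of an introduced TERT copy from those of the cell's own gene, so every TERT value below is their sum. Nothing says that the replicates came from separate cultures, so p-values measure the spread between these samples, which may be technical.

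Telomerase adds repeats to chromosome ends. TERT is its catalytic protein, and TERC is the RNA that carries the template. Most somatic cells keep TERT silent and lose telomere repeats as they divide, and an introduced TERT copy lets many epithelial cells divide without that limit. Dyskerin and its partners bind TERC, chaperones assemble the particle, and shelterin proteins recruit it to telomeres and restrain it there.

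TERT (ENSG00000164362) lies on the minus strand of chromosome 5, from 1253147 to 1295069 in GRCh38 (GENCODE release 29), and its longest coding transcript has 4018 bases with a GC content of 65.7%. No other annotated gene overlaps it in that release. The stretch of TERC that TERT copies is shown first, because TERC and TERT together form the active enzyme. It is given 5′ to 3′ from the GENCODE release 29 transcript, chr3:169764980-169765040 of GRCh38, minus strand, as DNA letters, with the 11-base template (transcript positions 46 to 56) in capitals.

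TERC template window: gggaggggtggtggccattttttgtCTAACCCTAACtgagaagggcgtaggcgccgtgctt

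The start region of the cell's own TERT gene is shown because several of its known regulators are described below. It runs from 250 bases before to 50 bases after the RefSeq start site (chr5:1295019-1295318 of GRCh38.p14, minus strand, printed along the gene). Capitals mark the E-box CACGTG, the site of MYC and MAX, and the GC box GGGCGG or its complement CCGCCC, the site of SP1.

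TERT promoter window: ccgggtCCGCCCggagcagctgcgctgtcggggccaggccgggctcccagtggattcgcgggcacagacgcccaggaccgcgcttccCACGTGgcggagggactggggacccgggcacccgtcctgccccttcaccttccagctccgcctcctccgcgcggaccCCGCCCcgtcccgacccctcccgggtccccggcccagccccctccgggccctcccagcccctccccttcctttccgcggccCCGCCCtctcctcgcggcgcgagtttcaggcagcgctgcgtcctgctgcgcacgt

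The window holds 1 E-box, which 7.3% of 35116 RefSeq promoter windows of equal length also hold, and 3 GC boxes, a motif present in 45.0% of them. The first base of the E-box is at −163, and those of the GC boxes are at −244, −86 and −5 relative to the start site. The longer ETS motif CCGGAA (complement TTCCGG) was not found in these letters and is present in 17.2% of windows. The shorter ETS core GGAA (complement TTCC) was not counted. TTCC does occur in the printed letters, so the window is not shown to lack ETS sites. Both strands were searched and the motifs do not overlap. The last letters of the window are cacgt, so an E-box that crosses its end would not be counted. Whether the counted transcripts began in this window cannot be read from counts per gene.

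TERT was transcribed at a level well above the detection limit in every library. It had between 1342 and 2483 counts per sample and 37639 in all. Levels are in counts-per-million (CPM) after TMM scaling, which corrects for the make-up of each library. Its mean over the 20 samples was 50.3 CPM, rank 4631 of the 45304 genes with any count, and 79.8% of the 22938 genes with enough counts to test had a lower mean. Among protein-coding genes it ranked 4566 of 18535 with any count. The genes next to it in that order were CKS2 (50.3 CPM), CCNJL (50.3 CPM) and the pseudogene YBX1P1 (50.3 CPM) just above, and AARS2 (50.3 CPM), SSH2 (50.3 CPM) and APBA2 (50.2 CPM) just below. These neighbours do not differ from TERT beyond its spread. Per transcript length, TERT averaged 29.7 TPM (transcripts-per-million, computed on the longest coding transcript) and ranked 5259 of 58394 genes that had a length. With the length of all annotated exons it averaged 35.4 TPM and ranked 4397.

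In control the TERT values of replicates 1 to 5 were 55.1, 57.3, 61.1, 60.6 and 62.3 CPM. In SPARC 0.05 they were 56.9, 49.4, 49.6, 48.7 and 56.4 CPM, and in SPARC 0.5 they were 51.0, 49.5, 44.1, 47.5 and 44.7 CPM. The SPARC 5 replicates had 40.7, 41.9, 42.5, 43.9 and 42.2 CPM. All 5 SPARC 5 values lay below every other sample, and all 5 SPARC 0.5 values lay below every control. The SPARC 0.05 values fell into both ranges: 3 of the 5 were below the lowest control and the other two were between control values.

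Control averaged 59.3 ± 2.98 CPM (SD, n = 5 in each group), followed by 52.2 ± 4.06 CPM in SPARC 0.05, 47.4 ± 2.97 CPM in SPARC 0.5 and 42.2 ± 1.17 CPM in SPARC 5. Relative to the control mean these were 88.0%, 79.9% and 71.2% at the 3 rising doses. The rank of TERT among all genes by count lay between 3843 and 4248 for control samples, 4171 and 4746 for SPARC 0.05, 4591 and 5103 for SPARC 0.5, and 5192 and 5444 for SPARC 5. In bulk RNA, fewer cells with TERT and less TERT RNA per cell cannot be told apart.

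**Figure D1:**
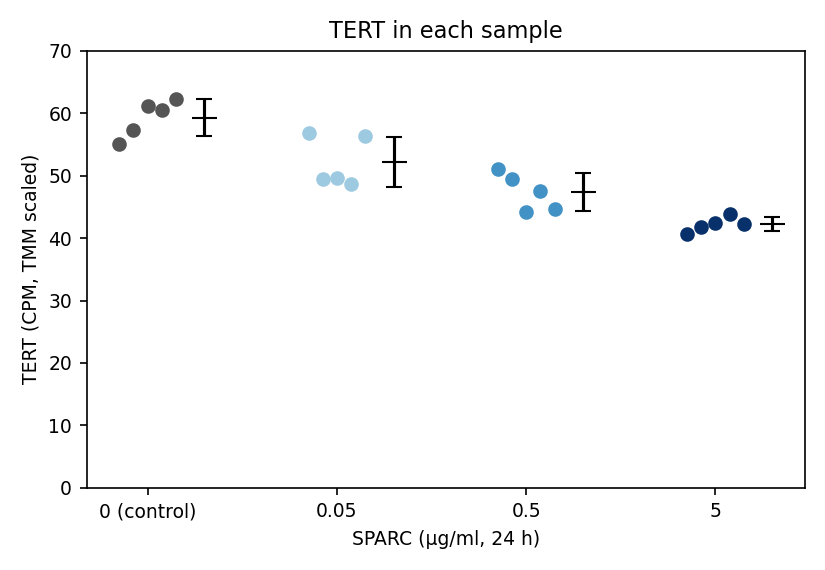
TERT in CPM (TMM scaled) for each of the 20 samples against the SPARC dose in µg/ml. Points are samples in replicate order and the bars to their right are mean ± SD of 5. The SPARC 5 points lie between 40.7 and 43.9 CPM, below all others, and the control points between 55.1 and 62.3 CPM.

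Replicates of equal dose differed little. The coefficient of variation of TERT was 5.03% among controls, 7.78% among SPARC 0.05 samples, 6.26% among SPARC 0.5 and 2.76% among SPARC 5, or 5.76% pooled over the groups. Counting error alone would give 2.31% at the mean count of TERT. The median pooled coefficient over the 9624 genes averaging 10 CPM or more was 4.97%, and 62.5% of those genes varied less than TERT. The biological coefficient of variation that edgeR fitted was 4.64% for TERT, beside 4.47% for the fitted trend at its level.

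Each dose was compared with control to ask how TERT responded to SPARC. The quasi-likelihood F-test of edgeR was fitted to all 22938 genes in 1 model of the 4 group means, with Benjamini-Hochberg adjustment of p over all of them. Each log2 fold change stands with a standard error (SE), derived as its absolute value over the square root of the F statistic. The 95% intervals were built from that SE. The 3 comparisons share the control samples. At SPARC 0.05 against control, TERT fell to 52.2 CPM in SPARC 0.05, against 59.3 CPM in control (log2 fold change −0.18 ± 0.05, 95% interval −0.27 to −0.09, adjusted p = 0.0446). At SPARC 0.5 against control the means were 47.4 CPM in SPARC 0.5 and 59.3 CPM in control (−0.33 ± 0.05, −0.42 to −0.24, adjusted p = 4.38e-07). At SPARC 5 against control they were 42.2 CPM in SPARC 5 and 59.3 CPM in control (−0.49 ± 0.05, −0.58 to −0.40, adjusted p = 2.83e-15). On the linear scale TERT fell by 11.9% at SPARC 0.05, fell by 20.2% at SPARC 0.5 and fell by 28.8% at SPARC 5. Over all genes the median log2 fold change was −0.0025, −0.0044 and −0.0069 in that order of doses.

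Falls called across all genes made up 0.0785% of genes at SPARC 0.05 (18 of 22938), 0.894% at SPARC 0.5 (205) and 4.58% at SPARC 5 (1050). Ordered by p-value, TERT was at rank 17 of the falls at SPARC 0.05, rank 1 at SPARC 0.5 and rank 5 at SPARC 5. By size, among called falls of genes averaging 10 CPM or more, it ranked 8 of 16 at SPARC 0.05, 12 of 145 at SPARC 0.5 and 16 of 755 at SPARC 5. Counted over all called falls, including those of genes with lower counts, TERT ranked 10 of 18 at SPARC 0.05, 72 of 205 at SPARC 0.5 and 227 of 1050 at SPARC 5.

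The call at SPARC 0.05 was near the threshold. It was lost with limma-voom (−0.18, adjusted p = 0.0787), with each library corrected for gene GC content and length (−0.13, adjusted p = 0.386), and when any of several single libraries was left out (adjusted p up to 0.238, without SPARC 0.05 replicate 2). The calls at SPARC 0.5 and SPARC 5 were kept in every alternative run.

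The doses also differed among themselves. TERT was lower in SPARC 5 than in SPARC 0.05 (42.2 CPM in SPARC 5 and 52.2 CPM in SPARC 0.05, log2 fold change −0.31 ± 0.05, adjusted p = 1.83e-07, where 2.74% of genes fell). It was lower in SPARC 5 than in SPARC 0.5 (42.2 CPM in SPARC 5 and 47.4 CPM in SPARC 0.5, −0.16 ± 0.05, adjusted p = 0.0182, where 1.49% fell), a call lost with limma-voom (adjusted p = 0.0641) and without SPARC 0.5 replicate 1 (adjusted p = 0.101), SPARC 0.5 replicate 2 (0.0753) or SPARC 5 replicate 1 (0.0528). SPARC 0.5 against SPARC 0.05 did not pass (47.4 CPM in SPARC 0.5 and 52.2 CPM in SPARC 0.05, −0.14 ± 0.05, 95% interval −0.23 to −0.05, adjusted p = 0.273, where 0.0218% fell). Fitted as a trend over the 4 ordered doses, TERT changed by −0.16 ± 0.01 on the log2 scale per dose step (adjusted p = 8.13e-14). By p-value this was rank 1 of all falling trends, which 4.27% of genes had. The test of any difference among the 4 groups gave an adjusted p of 1.08e-14, with 11% of genes called.

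A 2-sided exact permutation test of TERT log2 CPM over all arrangements of 10 samples gave p = 0.00794, the smallest that 5 against 5 can give, for SPARC 5 against each other group and for SPARC 0.5 against control (adjusted p = 0.0119 over the 6 pairs). For SPARC 0.05 against control the exact permutation p was 0.0317 (adjusted 0.0381), and for SPARC 0.5 against SPARC 0.05 it was 0.0952 (adjusted 0.0952). These permutation values do not cover the choice of TERT, whose response in the same data was known beforehand, so they are not independent support. In the authors' deposited tables, made with their own filter over 16045 genes, TERT had log2 fold changes of −0.19 at SPARC 0.05 (adjusted p = 0.0271), −0.34 at SPARC 0.5 (adjusted p = 3.16e-06) and −0.50 at SPARC 5 (adjusted p = 1.77e-11).

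The base composition of libraries moved with the groups and TERT is rich in GC, so both are given together. For each library, log2 CPM relative to the mean of the 20 libraries was correlated with gene GC content across 15098 genes, which are not independent replicates. The coefficient was 0.129 ± 0.108 among control libraries, −0.036 ± 0.032 for SPARC 0.05, −0.060 ± 0.042 for SPARC 0.5 and −0.040 ± 0.086 for SPARC 5 (mean ± SD of 5 libraries). The ranges of SPARC 0.05 and SPARC 5 overlapped that of control, and the range of SPARC 0.5 (−0.124 to −0.018) lay just below it. The control libraries had coefficients of −0.013 to 0.272 and TERT levels of 55.1 to 62.3 CPM. The SPARC 5 libraries had coefficients of −0.130 to 0.103 and TERT levels of 40.7 to 43.9 CPM. The part of the GC trend in the fall of TERT was not tested separately from dose. With GC content and length corrected, the TERT log2 fold change was −0.13 at SPARC 0.05 (adjusted p = 0.386), −0.27 at SPARC 0.5 (adjusted p = 1.29e-05) and −0.45 at SPARC 5 (adjusted p = 2.93e-14). Without the correction the falls were larger at every dose, at −0.18, −0.33 and −0.49.

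**Figure D2:**
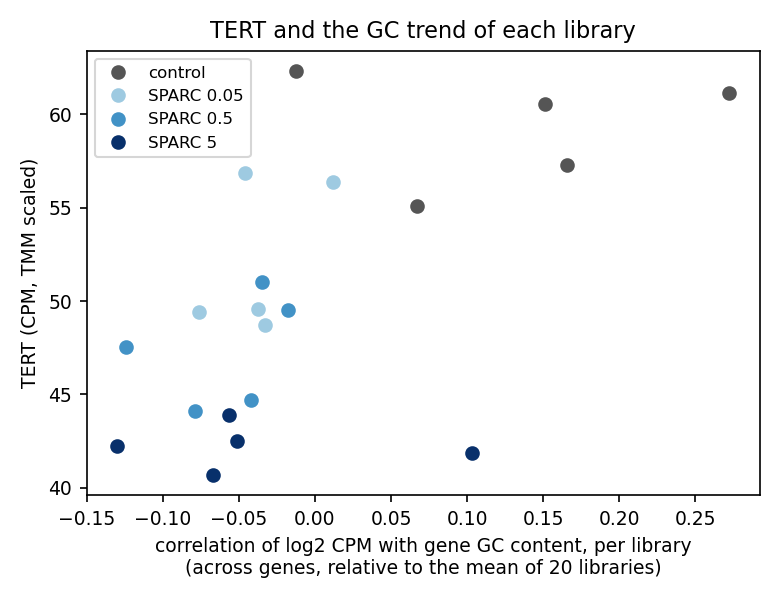
TERT in CPM (y axis) against the correlation of log2 CPM with gene GC content in the same library (x axis), for each of the 20 libraries, coloured by dose. SPARC 5 libraries span −0.130 to 0.103 on the x axis and 40.7 to 43.9 CPM on the y axis. Control libraries span −0.013 to 0.272 and 55.1 to 62.3 CPM.

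**Figure D3:**
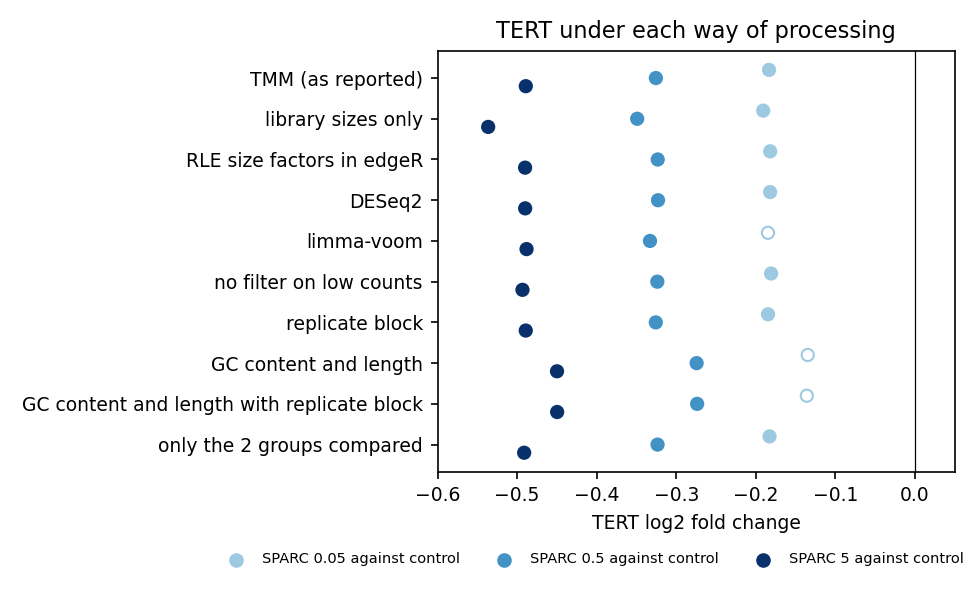
TERT log2 fold change at each dose against control (x axis) under each way of processing (rows). Filled points have an adjusted p under 0.05 and open points do not. SPARC 0.05 points lie between −0.19 and −0.13, where 3 are open, SPARC 0.5 points between −0.35 and −0.27, and SPARC 5 points between −0.54 and −0.45.

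TERT was set beside 9 lists of 87 genes, of which 80 had enough counts to test. The lists hold its partners, other telomere genes, promoter regulators, chromosome 5 neighbours and genes that limit division. At SPARC 5, 8 of the 80 rose and 4 fell (15% called, beside 11.6% of all genes, of which 7.04% rose), and their median log2 fold change was −0.016. At SPARC 0.5, 4 rose and 0 fell (5% beside 2.25% of all genes, of which 1.36% rose), and at SPARC 0.05 none passed in edgeR (0 of 80 beside 0.266% of all genes, of which 0.187% rose). The rises at SPARC 0.5 were HSP90AA1, PRIM2 (0.19 ± 0.05, adjusted p = 0.0382), TNKS2 (0.15 ± 0.04, 0.0101) and ETS1 (0.20 ± 0.05, 0.0247), of which the last 3 did not pass with GC content and length corrected (0.129, 0.082 and 0.0984). PRIM2 and ETS1 at that dose also failed the test in several of the fits that left out 1 library (adjusted p up to 0.151 for PRIM2, without SPARC 0.5 replicate 5, and 0.0763 for ETS1, without SPARC 0.5 replicate 4). At an unadjusted p under 0.05 these zeros become 6 falls at SPARC 0.5, and 6 rises and 10 falls at SPARC 0.05. The share of all genes at that unadjusted threshold is not given, so nothing is read from such counts here or below. DESeq2 called 0 falls at SPARC 0.5, where it called 255 over all genes. At SPARC 0.05 it called 1 rise and 3 falls, beside 103 rises and 67 falls over all genes. Limma-voom called none of these. None of the 80 had a fitted fall as large as that of TERT at SPARC 5 or SPARC 0.5, and 2 had at SPARC 0.05, where neither passed. These were the MYC antagonist MXD1 (−0.29, adjusted p = 0.0667) and the telomere helicase RTEL1 (−0.19, adjusted p = 0.729).

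TERC, the template RNA, was hardly counted. It had between 2 and 18 counts per sample, a mean of 0.252 ± 0.140 CPM at SPARC 5 and 0.173 ± 0.049 CPM in control (SD, n = 5 each), and 0.971 TPM over all samples, against 29.7 TPM for TERT. Its log2 fold change at SPARC 5 had a 95% interval of −0.69 to 1.76 (0.54 ± 0.62, adjusted p = 0.685), so a change of the size seen for TERT was not detectable at this depth.

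The genes of proteins that bind TERC and assemble the enzyme were set beside TERT next. All 11 members of that list were tested. At SPARC 5, 0 rose and 2 fell, with a median log2 fold change of 0.023, where 7.04% of all genes rose and 4.58% fell. The rises numbered 2 at an unadjusted p under 0.05 and 0 with DESeq2 or limma-voom. The falls were RUVBL2 (222.6 ± 8.95 CPM in SPARC 5 and 240.4 ± 8.91 CPM in control, −0.11 ± 0.03, adjusted p = 0.0019) and RUVBL1 (150.4 ± 3.47 CPM in SPARC 5 and 159.5 ± 4.32 CPM in control, −0.085 ± 0.028, adjusted p = 0.0319), the paired ATPases that help to build the particle. With GC content and length corrected, neither passed (adjusted p = 0.0602 for RUVBL2 and 0.266 for RUVBL1). RUVBL2 kept its call in every other alternative, among them that correction with the replicate block. RUVBL1 was also lost with that correction and block (0.242), without control replicate 2 (0.117), control replicate 4 (0.0671), SPARC 5 replicate 3 (0.129) or SPARC 5 replicate 4 (0.0627) and with no filter on low counts (0.0825). DKC1, which encodes dyskerin, had 161.4 ± 8.88 CPM in SPARC 5 and 158.9 ± 7.07 CPM in control (0.023 ± 0.031, 95% interval −0.038 to 0.084, adjusted p = 0.738), with a sign that turned to −0.025 when only library sizes were used for scaling. Per length, the dyskerin partners NOP10 (199.3 TPM), NHP2 (128.7 TPM) and GAR1 (49.4 TPM), and DKC1 itself (124.2 TPM), stood above TERT. WRAP53, which guides telomerase to Cajal bodies, had 9.48 TPM, and TEP1, a telomerase-associated protein, had 7.23 TPM.

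**Figure D4:**
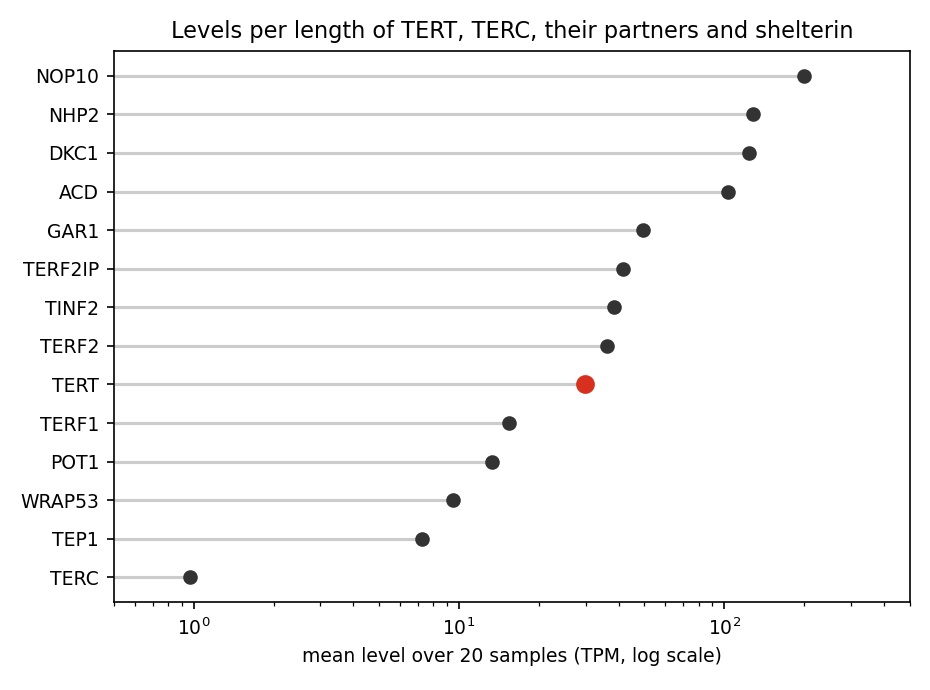
Mean level over the 20 samples per transcript length (TPM, log scale) of TERT (red), TERC, proteins of the telomerase particle and shelterin (black). TERT lies at 29.7 TPM, between TERF2 (36.0) and TERF1 (15.5), and TERC at 0.971.

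None of the 6 TERC-processing genes passed at SPARC 5 in edgeR, DESeq2 or limma-voom, and 1 was lower at an unadjusted p under 0.05. Over all genes 11.6% were called in edgeR, and a list this short can hold none at that share. The list's median log2 fold change was −0.047. Of 7 genes of TERT protein folding, turnover and inhibition, none passed at SPARC 5 in edgeR, again beside 11.6% of all genes. At an unadjusted p under 0.05 in edgeR, 1 was higher and 2 were lower. DESeq2 and limma-voom called 1 fall each, beside 1088 and 932 falls over all genes. HSP90AA1, a chaperone in telomerase assembly, rose at SPARC 0.5 (1473 ± 32.6 CPM in SPARC 0.5 and 1380 ± 41.3 CPM in control, adjusted p = 0.00495). At SPARC 5 it had 1335 ± 46.4 CPM and did not pass (adjusted p = 0.149).

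Of the 6 shelterin genes, 1 rose and 0 fell at SPARC 5, with a median of −0.073, where 7.04% of all genes rose and 4.58% fell. In edgeR 2 were lower at an unadjusted p under 0.05, DESeq2 called 2 falls (1088 over all genes) and limma-voom called 0 (932 over all genes). The rise was TINF2, the hub that joins the complex (38.3 ± 1.81 CPM in SPARC 5 and 34.2 ± 1.58 CPM in control, 0.16 ± 0.05, adjusted p = 0.0211), and it was lost with library sizes only (adjusted p = 0.124) and without control replicate 1 (0.083), control replicate 5 (0.0528), SPARC 5 replicate 2 (0.0822) or SPARC 5 replicate 5 (0.0592). The double-strand telomere binders TERF1 (−0.09 ± 0.06, adjusted p = 0.421) and TERF2 (−0.12 ± 0.05, adjusted p = 0.0622) did not pass, nor did POT1, which binds the single-stranded end (0.07 ± 0.07, adjusted p = 0.592). TERF2 did pass as lower with library sizes only (−0.17, adjusted p = 0.00428), with DESeq2 (−0.12, 0.0409), without SPARC 5 replicate 2 (−0.15, 0.0236) and without control replicate 4 (−0.14, 0.0472).

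Among genes of the CST complex and of primase with polymerase alpha, which fill in the second telomere strand, 6 were tested. At SPARC 5, 1 rose and 0 fell (median −0.039), where 7.04% of all genes rose and 4.58% fell. In edgeR 1 was lower at an unadjusted p under 0.05, and DESeq2 and limma-voom called 0 falls. The rise was the primase subunit PRIM2 (34.2 ± 2.42 CPM in SPARC 5 and 28.5 ± 1.36 CPM in control, 0.26 ± 0.05, adjusted p = 0.000128). Of 18 other telomere maintenance genes, 2 rose and 1 fell at SPARC 5 (median −0.0078), where 7.04% of all genes rose and 4.58% fell. The chromatin remodeller ATRX (0.13 ± 0.03, adjusted p = 0.0017) and the tankyrase TNKS2 (0.14 ± 0.04, adjusted p = 0.00568) rose, and the telomere-binding zinc finger ZBTB48 fell (16.7 ± 1.60 CPM in SPARC 5 and 20.0 ± 1.97 CPM in control, −0.26 ± 0.07, adjusted p = 0.00651). ATRX and TNKS2 lost their calls with library sizes only (adjusted p = 0.0644 and 0.0888) and with GC content and length corrected (0.417 and 0.103). TNKS2 (0.0599) and ZBTB48 (0.0503) also lost theirs without SPARC 5 replicate 4.

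**Figure D5:**
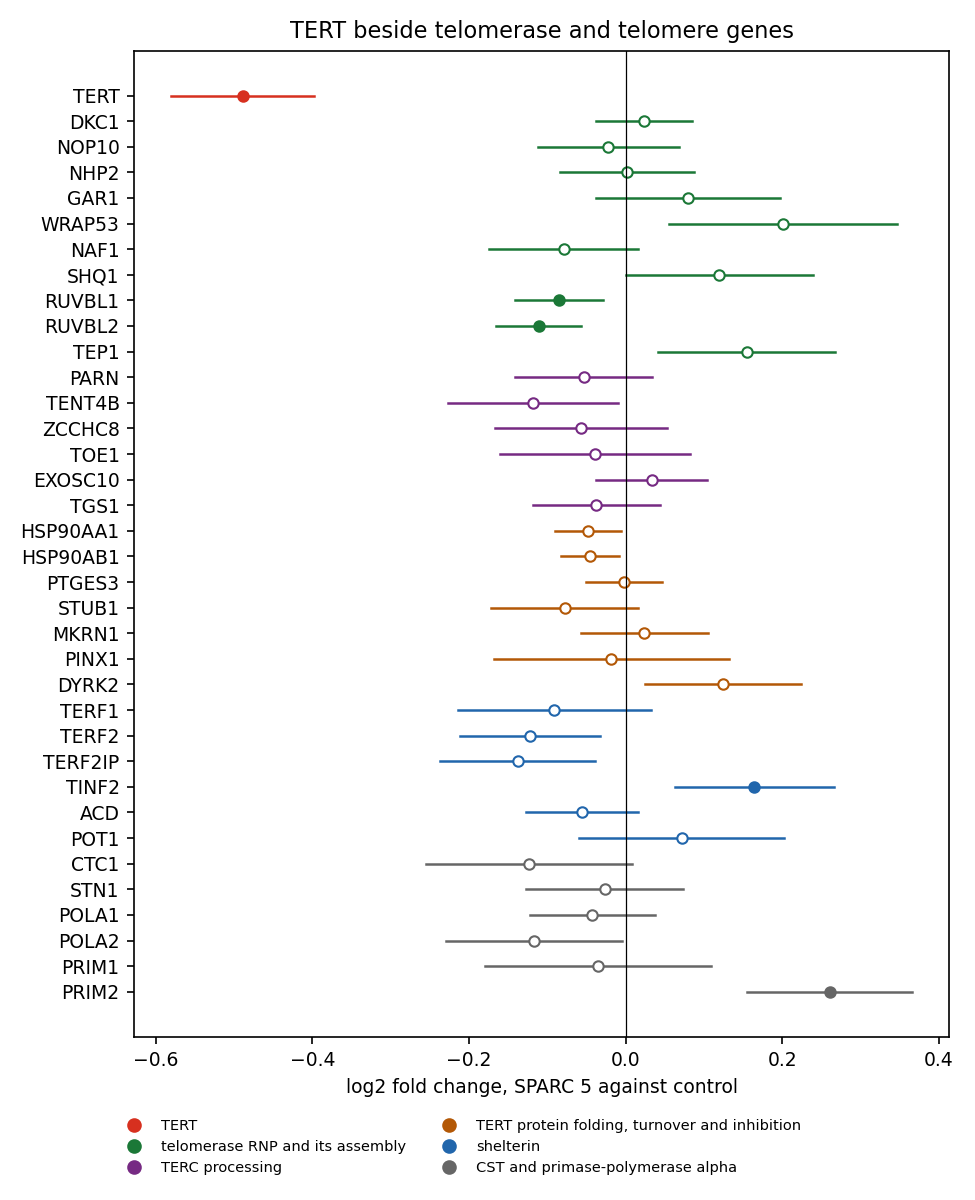
Log2 fold change at SPARC 5 against control with 95% intervals for TERT and 35 genes of the telomerase particle, TERC processing, TERT folding and turnover, shelterin and CST with primase (TERC is left out for its wide interval). Filled points have an adjusted p under 0.05. The TERT interval runs from −0.58 to −0.40, and no other plotted estimate is under −0.14.

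Known regulators of the TERT promoter were measured too, of which 19 of 20 could be tested. At SPARC 5, 3 rose, where 7.04% of all genes rose, and the median over the list was −0.015. MYC, the activator that binds the E-box shown above, had 405.8 ± 14.0 CPM in SPARC 5 and 414.9 ± 15.5 CPM in control and did not pass (−0.032 ± 0.025, 95% interval −0.082 to 0.018, adjusted p = 0.511). ETS1, an ETS-family activator, rose (306.0 ± 13.3 CPM in SPARC 5 and 209.2 ± 15.6 CPM in control, 0.55 ± 0.05, adjusted p = 1.97e-08), as did MXD4, which competes with MYC for MAX (17.1 ± 1.26 CPM in SPARC 5 and 12.8 ± 1.25 CPM in control, 0.42 ± 0.09, adjusted p = 0.000127). ETS2 rose (0.11 ± 0.03, adjusted p = 0.00319) but not with library sizes only (adjusted p = 0.128). SMAD3, which carries TGF-beta signals, did not pass (−0.015 ± 0.035, adjusted p = 0.857).

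A list of 6 genes near TERT on chromosome 5 was examined, of which 3 could be tested, and none of the 3 passed at SPARC 5. With 11.6% of all genes called at that dose, 3 genes are too few for this to set them apart. CLPTM1L, next to it on the upstream side, had 145.6 ± 6.28 CPM in SPARC 5 and 142.9 ± 5.37 CPM in control (0.026 ± 0.030, 95% interval −0.034 to 0.086, adjusted p = 0.689). LPCAT1 (−0.029 ± 0.032, adjusted p = 0.677) and SLC12A7 (−0.051 ± 0.038, adjusted p = 0.48) did not pass either, and none of the 3 did at an unadjusted p under 0.05 or with DESeq2 or limma-voom. The transporter genes SLC6A19, SLC6A18 and SLC6A3, the other members of the list, had at most 4, 16 and 4 counts in any sample and were not tested.

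Genes that limit the division of cultured epithelial cells were the last list, of which 5 of 7 could be tested. CDKN2A, an inhibitor of cyclin-dependent kinases that keratinocytes often silence on immortalization, had between 0 and 2 counts per sample, and the adjacent CDKN2B between 0 and 6. The inhibitor CDKN1A rose at SPARC 5 (16.0 ± 1.03 CPM in SPARC 5 and 10.9 ± 0.927 CPM in control, 0.56 ± 0.08, adjusted p = 1.33e-07). RB1, MDM2 and LMNB1 did not pass.

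Genes whose pattern over the 20 samples was most like that of TERT were found with Pearson's r of log2 CPM among 15230 other genes averaging 1 CPM or more. The coefficients are a description, since all genes share the same libraries and doses. The closest was CAVIN2, a caveola component (r = 0.92), with 15.5 ± 1.02 CPM in SPARC 5 and 23.7 ± 1.37 CPM in control (log2 fold change −0.62 ± 0.07). The snoRNA host genes SNHG17 (r = 0.89, −0.31 ± 0.03) and SNHG7 (r = 0.88, −0.21 ± 0.03), the elongation factor gene EEF1D (r = 0.88, −0.26 ± 0.03) and CCDC88C (r = 0.87, −0.21 ± 0.03) followed. Their lower levels at SPARC 5 follow from the choice of genes by likeness to TERT and carry no test. Once each group mean was subtracted, the largest coefficients were those of CCDC88C (0.76), KDM5B (0.74), FAM171A2 (0.73), C9orf43 (0.73) and DRC3 (0.71). As the largest of 15230 coefficients over 20 samples, they can arise without any tie to TERT. C9orf43 and DRC3 were also thinly counted (1.90 and 3.07 CPM in SPARC 5).

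The line was checked against markers of its cell type. KRT5 (358397 to 557011 counts per sample), TP63 (8744 to 13417) and CDH1 (3033 to 5001), which mark basal stratified epithelium, were abundant. KRT12, the keratin of differentiated corneal epithelium, had at most 4 counts. Of the other listed markers, KRT3 (43 to 87 counts per sample) and PAX6 (213 to 430) were counted in every sample. Of the 11 epithelial markers 10 could be tested. At SPARC 5 against control 2 rose, 3 fell and 5 did not pass, where 7.04% of all genes rose and 4.58% fell. The basal keratin KRT14 rose (465.5 ± 42.3 CPM in SPARC 5 and 331.5 ± 24.99 CPM in control, 0.49 ± 0.06, adjusted p = 3.92e-05), as did TP63 (283.4 ± 6.55 CPM in SPARC 5 and 266.3 ± 1.70 CPM in control, 0.090 ± 0.024, adjusted p = 0.00536). KRT15, a keratin of basal and limbal cells, fell (53.1 ± 7.52 CPM in SPARC 5 and 114.3 ± 24.5 CPM in control, −1.11 ± 0.14, adjusted p = 2.98e-05). ALDH3A1, an aldehyde dehydrogenase abundant in cornea, fell (3.82 ± 0.595 CPM in SPARC 5 and 6.89 ± 0.626 CPM in control, −0.85 ± 0.12, adjusted p = 3.02e-08). The adhesion molecule EPCAM fell too (69.2 ± 1.75 CPM in SPARC 5 and 86.6 ± 3.11 CPM in control, −0.32 ± 0.03, adjusted p = 1.11e-12). The part of these marker changes in the fall of TERT was not tested. Summed over the list, which KRT5 dominates (11322 ± 156.5 CPM in SPARC 5 and 11321 ± 354.3 CPM in control), epithelial markers ranged from 13665 to 14174 CPM in SPARC 5 and from 13276 to 14272 CPM in control. All 6 stromal markers together summed to 5.58 to 7.79 CPM in SPARC 5 and 4.63 to 6.23 CPM in control, and KERA was at 0 in every sample. Immune, endothelial and melanocyte markers summed to at most 1.87, 1.28 and 3.95 CPM in any sample. SPARC itself had between 0 and 23 counts per sample.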

How the data were processed

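RNA of 20 hTCEpi samples was sequenced. The authors deposited whole read counts per Ensembl gene, and per the submitters' processing notes the build was GRCh38 and the tools were STAR 2.7.9a, Salmon 1.5.2, featureCounts of Subread 2.0.3, limma, edgeR and bcl2fastq. The annotation release and strand setting were not given in the sources used here. Per the file headers, the authors' 3 comparison tables hold log2 fold changes with intervals, p-values, moderated statistics as scores, and signed linear fold changes. Of 60871 entries, 368 carried 168 repeated identifiers with equal counts, and 1 entry of each was kept. Between replicates the chi-square per gene was 4.09 to 9.55, where counting noise alone gives about 1, so each library was counted as 1 sample.

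Counts were tested in edgeR 4.0.16 (R 4.3.3), with TMM factors, filterByExpr (minimum count 10), robust quasi-likelihood fits and a threshold of 0.05 on adjusted p. Log2 CPM used a prior count of 2. DESeq2 1.42.0, limma-voom 3.58.1, other scalings, no filter, a replicate block, a loess correction for GC content and length (span 0.3) and the removal of each sample were alternatives. In simulated counts for SPARC 5 against control (22061 genes), 100% of 100 genes changed by 0.5 on the log2 scale were recovered. There were 8 false calls among the unchanged genes. All genes were given the same spread, and no thinly counted gene was changed. Changes smaller than 0.5 were not simulated, so the recovery does not extend to those or to genes such as TERC. Lengths and GC content came from GENCODE release 29, which matched 58453 identifiers. Intervals cover counting error and the spread between samples.

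TERT, its lists and the likeness rule were chosen with earlier results of these data known. Members named in a list are those called at any dose, up to 4 of smallest p, those always named (TERC, DKC1, TERF1, TERF2, POT1), and others as examples. The values of 1 list member are not reported here.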

Additional observations from a re-analysis of the deposited data

How the results depend on the processing

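TERT at SPARC 5 and SPARC 0.5 against control, SPARC 5 against SPARC 0.05, the trend and the test of any difference kept their direction and call in all alternatives. The calls that moved concern small differences. TERT at SPARC 0.05 against control gave −0.18 (adjusted p = 0.0787) with limma-voom and −0.13 with GC content and length corrected (adjusted p = 0.386), and −0.14 with that correction and the replicate block (0.288), and leaving out single libraries gave −0.21 to −0.16 (adjusted p 0.0171 to 0.238), with 10 of 20 omissions losing the call. Its exact permutation difference gave −0.22 to −0.16 (adjusted p 0.0286 to 0.0762), with 7 of 20 losing it. TERT in SPARC 5 against SPARC 0.5 gave −0.16 with limma-voom (adjusted p = 0.0641) and −0.19 to −0.14 without single libraries (0.00767 to 0.101). The cause was not tested. DKC1 turned to −0.025 at SPARC 5 with library sizes only. The rank of TERT was 4631 by CPM, 5259 per kilobase of transcript and, in an alternative added after seeing the data, 4397 per kilobase of all exons, which differ because lengths differ.

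Genes called at SPARC 0.05 against control numbered 61, but 170 with DESeq2, 13 after the correction and 31 with correction and replicate block, and 22 to 82 without single libraries. SPARC 0.5 against control gave 517, and 267 (without SPARC 0.5 replicate 4) to 608. SPARC 0.5 against SPARC 0.05 gave 41, but 70 with DESeq2 and with no filter, 66 with the replicate block, 86 with correction and replicate block, 80 with the 2 groups compared only, and 15 to 52 without single libraries. With library sizes only, 999 genes rose and 2191 fell at SPARC 5, where TMM gave 1615 and 1050, and TERT was at −0.54. The replicate block left TERT at −0.49 at SPARC 5, −0.33 at SPARC 0.5 and −0.18 at SPARC 0.05 (adjusted p = 0.0341). Whether equal replicate numbers mark paired samples is not settled. The correlation of deviations in 30 pairs of equal number was −0.035 to 0.044, with a median of 0.015. In 120 other pairs the median was −0.0014. Of the 20 samples, 7 correlated best with their own number. With the replicate block, 87 genes were called at SPARC 0.05 and 612 at SPARC 0.5 against control. For named genes, 708 of 752 alternatives kept the call, 39 lost it, 4 gained it and 1 reversed. TERC was too thinly counted to follow at this depth.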
